A study of Mus musculus with 10 samples.

Results

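Lung lineage transcription factors are the DNA-binding proteins, and 1 inhibitor of such proteins, that set and hold the identity of lung epithelial cells. The 10 genes described here are Nkx2-1, Foxa1, Foxa2, Foxp1, Foxp2, Gata6, Cebpa, Sox2, Sox9 and Id2. They were picked out by symbol from the 39017 genes of the count table. The matching uses no measured value, although the set itself was put together with earlier results of these data known, and 9 of them were among the 16216 genes with enough counts to test. Sox2 was the exception. RNA was sequenced from macrodissected lung tumours of male C57BL/6 mice, 18 weeks and 6 days after an adenovirus carrying Cre under the SPC promoter (Ad5SPC-Cre) was given through the trachea. This promoter, from the surfactant protein C gene, directs recombination to SPC-positive cells, in which the tumours start. Tumours were dissociated and depleted of leukocytes with CD45 beads. Both groups carried the same engineered tumour-initiating alleles. The KPG1 tumours (n = 5) also carried the floxed Glut1 gene, labelled homozygous fl/fl and KO, so that Cre deletes this glucose transporter, and the controls (KP, n = 5) are labelled as heterozygous fl/wt for the same allele, although another of their labels reads WT. The labels call the libraries replicates of a group and do not say that each came from a separate mouse, so p-values measure the spread between these tumours. The question here was whether the lineage factors differed between KP and KPG1 tumours, and how much they varied within each genotype.

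The factors divide by role. Nkx2-1 is the homeodomain protein that specifies the lung and drives surfactant genes. The FOXA proteins open chromatin for it, and in their presence lung tumours that lose Nkx2-1 can take on a gastric programme. FOXP1 and FOXP2 are repressors of distal and proximal genes. GATA6 acts in alveolar differentiation and C/EBPα in the maturation of alveolar type 2 cells, which make surfactant. SOX2 marks the proximal airway and SOX9, with ID2, marks the distal tip of the developing lung. ID2 has no DNA-binding domain and holds E proteins of the basic helix-loop-helix (bHLH) family away from DNA. In lung adenocarcinoma Nkx2-1 is a diagnostic marker, and its loss marks poorly differentiated tumours in mice.

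On the mm10 genome with GENCODE M21 annotation, Nkx2-1 lies on chromosome 12 (56531958 to 56536908, minus strand) and Foxa1 on the same chromosome and strand (57540628 to 57546916), 1003720 bases apart. Id2 is also on chromosome 12 (25093799 to 25097140, minus strand). Cebpa is on chromosome 7 (35119293 to 35121928, plus strand), Foxa2 on chromosome 2 (148042877 to 148046969, minus strand), Foxp1 on chromosome 6 (98925338 to 99522721, minus strand) and Foxp2 on chromosome 6 (14901349 to 15441977, plus strand). Sox2 is on chromosome 3 (34650405 to 34652461, plus strand) and Sox9 on chromosome 11 (112782224 to 112787760, plus strand). Sox2 lies inside the long non-coding gene Sox2ot on the same strand. Nkx2-1 and Cebpa each overlap an antisense gene, Gm26973 with 0 shared exonic bases and Gm45091 with 51. Foxp1 shares 300 exonic bases with Gm20696 on the same strand, which had 1 to 17 counts a tumour. Whether the counting used the strand is not given in the sources used here.

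The stretches before the start sites of Nkx2-1, Foxa1 and Cebpa are shown because Nkx2-1 and Foxa1 are chromosomal neighbours and because Cebpa was the factor whose relation with alveolar type 2 genes passed the adjustment. They are reference bases from RefSeq (GRCm38.p6), 5′ to 3′ on the strand of the gene, at chr12:56536909-56537158 (minus), chr12:57546122-57546361 (minus) and chr7:35119043-35119292 (plus). Capitals mark matches, on either strand, to 7 motifs. Forkhead factors were searched by TGTTTAC and factors of the NKX2 family by the letters CAAGTG. The GATA family was searched by AGATAA, the C/EBP family by the spaced letters TTGCNNAA and the SOX family by the letters ACAANG. Core promoter elements were the box TATAAA and the box CCAAT.
Nkx2-1: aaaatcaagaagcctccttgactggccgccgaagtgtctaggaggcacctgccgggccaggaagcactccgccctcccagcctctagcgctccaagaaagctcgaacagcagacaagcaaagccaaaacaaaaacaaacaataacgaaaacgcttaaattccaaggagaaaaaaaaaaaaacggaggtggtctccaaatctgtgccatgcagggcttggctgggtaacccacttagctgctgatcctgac
Foxa1: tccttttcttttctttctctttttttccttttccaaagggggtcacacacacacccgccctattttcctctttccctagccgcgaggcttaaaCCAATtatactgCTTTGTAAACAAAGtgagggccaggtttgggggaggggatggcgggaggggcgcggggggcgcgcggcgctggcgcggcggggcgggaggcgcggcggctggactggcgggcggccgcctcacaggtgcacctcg
Cebpa: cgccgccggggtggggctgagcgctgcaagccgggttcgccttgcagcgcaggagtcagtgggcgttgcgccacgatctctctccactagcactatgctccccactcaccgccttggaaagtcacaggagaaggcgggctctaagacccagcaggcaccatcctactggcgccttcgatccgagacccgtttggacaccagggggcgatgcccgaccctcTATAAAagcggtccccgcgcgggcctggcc

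Start sites of 7 of the 10 genes were searched for motifs, and Foxp2, Gata6 and Sox9 were not among them. The Foxa1 stretch precedes the RefSeq start, which lies inside the longer GENCODE gene, so it is an internal start of that gene. The Foxa1 stretch held 1 match to the forkhead letters, the core bound by its own family, 141 bases before the start, where it overlaps SOX matches on opposite strands at 145 and 137 bases, and a CCAAT box at 157 bases. The last 10 bases before the Foxa1 start lie in an annotated exon of the gene and are not shown. They hold a further SOX match at 8 bases. Of 32536 distinct mouse promoter windows of 250 bases, 3.17% held the forkhead letters, 36.2% the SOX letters and 33.8% CCAAT. The Cebpa stretch held a TATA box 30 bases before the start, a match found in 12.3% of windows. The Nkx2-1 stretch held none of the 7 motifs. Of all windows 11.5% held the NKX2, 9.97% the GATA and 9.57% the C/EBP letters. A match of letters describes the sequence and was not tested for binding.

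The libraries held 32427029 to 49534284 counts. Values are log2 CPM, where CPM are counts scaled to a common library total, after TMM scaling, which allows for differences in composition, and differences are log2 fold changes from limma, KPG1 minus KP, with p-values adjusted over all 16216 genes. Slc2a1, the gene of Glut1, was at 6.30, 6.99, 6.95, 6.76 and 6.16 log2 CPM in KP 1 to KP 5 and at 5.57, 6.06, 5.35, 5.68 and 5.47 in KPG1 1 to KPG1 5. The groups did not overlap (exact permutation test, two-sided, p = 0.00794, the smallest that 5 against 5 allows), and the log2 fold change was -1.01 ± 0.20 (SE), with an adjusted p of 0.0675 by limma. Across all genes 10 were called higher and 18 lower in KPG1, and the median log2 fold change was 0.02. Epithelial genes were abundant in every tumour, at 3675 to 6614 summed CPM over 10 markers. In KP and KPG1 respectively, leukocyte markers summed to 482 to 3627 and 2063 to 6224 CPM, mostly Lyz2, which type 2 cells also make, while Ptprc, the CD45 gene, had 211 to 484 counts. Of 8 leukocyte markers tested, 3 were fitted higher, with Lyz2 at 0.99 ± 0.51, and 5 lower. Itgam (-1.04 ± 0.33, limma adjusted p = 0.263) and S100a8 (-1.84 ± 0.50, 0.205) were lower without overlap of the groups. Limma and edgeR called 0 of the 8, DESeq2 called 2 lower and limma with quality weights 1 lower.

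None of the 9 lineage factors tested passed an adjusted p of 0.05 in limma, where 0.173% of all genes did. At an unadjusted p under 0.05 there was 1 of 9, Id2, where 11.6% of all genes passed, and no factor was free of overlap between the groups, which 2.81% of all genes were. The count of factors was thus near the background. The quasi-likelihood test of edgeR also called 0 of 9, and DESeq2 called 1, Id2, where it called 3.38% of all genes. The fitted difference was above 0 for 8 of 9, against 52.7% of all genes, and the median over the 9 was 0.33. The largest values were those of Foxp2, Id2 and Sox9. Over the 19 alternative fits described below, the median over the factors tested ran from 0.0088 to 0.395. Because these are bulk fractions, fewer cells that express a factor and less of its RNA per cell cannot be told apart.

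Per length, the factors spanned a wide range of levels. The length used joins all annotated exons of a gene, 16346 bases for Foxp2 and 13751 for Foxp1 against 2370 for Foxa2. The order depends on it, since in plain CPM Foxp1 averaged 183 in KP tumours, above Foxa2 at 81.1 and Foxa1 at 66.2. In CPM per kilobase of exon, KP tumours averaged 118 ± 32.6 (SD, n = 5) for Cebpa, 104 ± 19.0 for Id2 and 87.2 ± 23.6 for Nkx2-1, and the ranges of these 3 overlapped. Foxa2 followed at 34.2 ± 6.02 and Foxa1 at 19.9 ± 5.72, which overlapped each other but not Nkx2-1. Gata6 (13.5 ± 1.94) and Foxp1 (13.3 ± 3.49) could not be ordered, Sox9 stood below them at 8.01 ± 1.65 and Foxp2 below it at 1.53 ± 0.798. Sox2 was lowest at 0.0832 ± 0.0172. In KPG1 tumours Id2 came first on this scale (169 ± 43.8), then Cebpa (131 ± 18.8) and Nkx2-1 (107 ± 13.8), again with overlapping ranges. The order of the other 7 was the same as in KP tumours, but the ranges of Foxa1 and Gata6, and those of Foxp1 and Sox9 (11.9 ± 3.53), overlapped in KPG1.

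**Figure D1:**
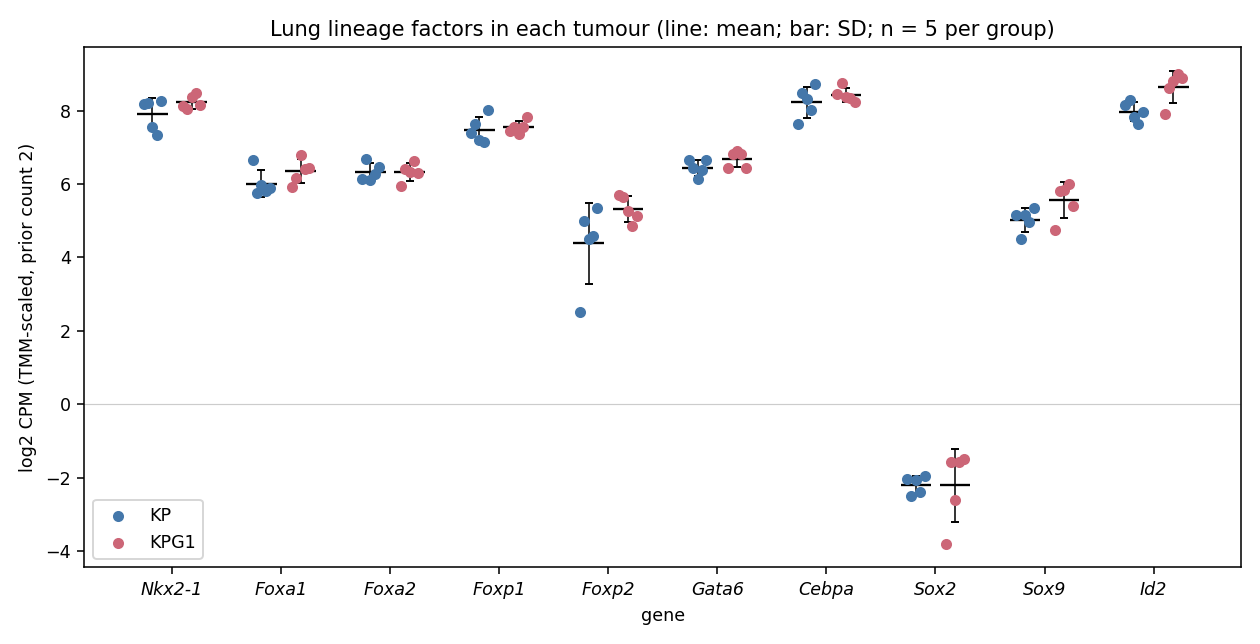
Level of each factor (log2 CPM, vertical axis) in the 5 KP (blue) and 5 KPG1 (red) tumours, each point 1 tumour, with the mean as a line and the SD as a bar. The groups overlap for every factor, Foxp2 of KP 1 lies at 2.50, far below the other 9 tumours, and Sox2 lies below 0 in all of them.

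Nkx2-1 was abundant in every tumour. It was at 8.18, 8.20, 7.56, 7.34 and 8.25 log2 CPM in KP 1 to KP 5 and at 8.12, 8.05, 8.36, 8.48 and 8.15 in KPG1 1 to KPG1 5. KP 3 and KP 4 were the low tumours, and the other 3 KP tumours lay within the KPG1 range. The means were 7.91 ± 0.42 (SD, n = 5) and 8.23 ± 0.18, and the difference of 0.33 ± 0.20 (SE) was not called (limma adjusted p = 0.547; exact permutation p = 0.190). Its 95% confidence interval ran from -0.10 to 0.75. KP tumours ranged over 1.88-fold and KPG1 tumours over 1.35-fold.

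Foxa1, a pioneer factor, was at 6.64, 5.75, 5.97, 5.81 and 5.88 log2 CPM in KP 1 to KP 5 and at 5.92, 6.18, 6.79, 6.41 and 6.44 in KPG1 1 to KPG1 5. In 4 of 5 KP tumours it was below 4 of the 5 KPG1 tumours, and KP 1 stood high while KPG1 1 stood low. The difference was 0.34 ± 0.20 (95% interval -0.10 to 0.78; limma adjusted p = 0.547; exact permutation p = 0.151). Foxa2, its paralogue, ranged from 6.10 to 6.68 in KP and from 5.94 to 6.63 in KPG1 tumours. The Foxa2 groups lay on top of each other, with a log2 fold change of -0.01 ± 0.16 and a 95% interval from -0.35 to 0.34 (limma adjusted p = 0.990).

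Foxp1 and Foxp2, which repress transcription as dimers, differed in abundance and in spread. Foxp1 ranged from 7.15 to 8.01 log2 CPM in KP and from 7.35 to 7.83 in KPG1 tumours, with a log2 fold change of 0.06 ± 0.17 (limma adjusted p = 0.915). Foxp2 was at 2.50, 4.99, 4.49, 4.59 and 5.35 in KP 1 to KP 5 and at 5.70, 5.64, 5.27, 4.85 and 5.14 in KPG1 1 to KPG1 5. KP 1 held 233 Foxp2 counts, where the other 9 tumours held 831 to 2378. The groups overlapped through KP 2 and KP 5, and the difference of 0.95 ± 0.43 was the largest of the 9 (limma adjusted p = 0.433; exact permutation p = 0.0556). Without KP 1 it was 0.47.

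Gata6, on chromosome 18 (11052064 to 11085635, plus strand), shares 93 exonic bases with 1010001N08Rik on the other strand, which had 252 to 758 counts a tumour. Gata6 was the least variable factor tested. It was at 6.64, 6.44, 6.13, 6.38 and 6.65 log2 CPM in KP 1 to KP 5 and at 6.43, 6.82, 6.90, 6.80 and 6.44 in KPG1 1 to KPG1 5, a difference of 0.23 ± 0.15 (limma adjusted p = 0.563; exact permutation p = 0.135). KPG1 2, KPG1 3 and KPG1 4 lay above all KP tumours. Cebpa was at 7.63, 8.47, 8.31, 8.02 and 8.72 in KP 1 to KP 5 and at 8.46, 8.74, 8.36, 8.33 and 8.22 in KPG1 1 to KPG1 5. KP 1 and KP 4 were its low tumours, and the difference was 0.19 ± 0.20 (95% interval -0.24 to 0.62; limma adjusted p = 0.742), or 0.04 without KP 1.

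Sox2 was close to the limit of detection, with 8, 4, 7, 6 and 9 counts in KP 1 to KP 5 and 1, 11, 5, 10 and 12 in KPG1 1 to KPG1 5. A level of 0.171 ± 0.0353 CPM in KP and 0.203 ± 0.128 in KPG1 tumours came from so few counts that a difference was not detectable at this depth, and the gene did not pass the filter on low counts. Sox9 was at 5.16, 4.49, 5.16, 4.97 and 5.34 log2 CPM in KP 1 to KP 5 and at 4.76, 5.80, 5.84, 5.99 and 5.41 in KPG1 1 to KPG1 5. In 4 of 5 KPG1 tumours it was above every KP tumour, KPG1 1 was below 4 of the 5, and the difference was 0.53 ± 0.24 (limma adjusted p = 0.436; exact permutation p = 0.0714). Cartilage also uses Sox9, and its marker Col2a1 had at most 25 counts in any tumour. Acan, another cartilage marker, had 0 to 2089 counts and differed the other way from Sox9 (-6.30 ± 1.57, limma adjusted p = 0.168). The groups did not overlap for Acan, and DESeq2 called it lower while edgeR did not.

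Id2 showed the smallest p of the factors. It was at 8.16, 8.29, 7.82, 7.62 and 7.96 log2 CPM in KP 1 to KP 5 and at 7.91, 8.60, 8.80, 9.01 and 8.89 in KPG1 1 to KPG1 5. In KPG1 2 to KPG1 5 it was above every KP tumour, and KPG1 1 lay inside the KP range. The means were 7.97 ± 0.27 (SD, n = 5) and 8.64 ± 0.44, and the difference of 0.67 ± 0.21 (SE), or 1.59-fold, had a 95% interval from 0.21 to 1.13. It did not pass limma's adjustment (adjusted p = 0.257, rank 511 of 16216 by p), with an unadjusted exact permutation p of 0.0317. DESeq2 gave an adjusted p of 0.0489 for Id2 and called 125 genes higher and 423 lower, and leaving out KPG1 1 gave 0.84 with a limma adjusted p of 0.0965.

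**Figure D2:**
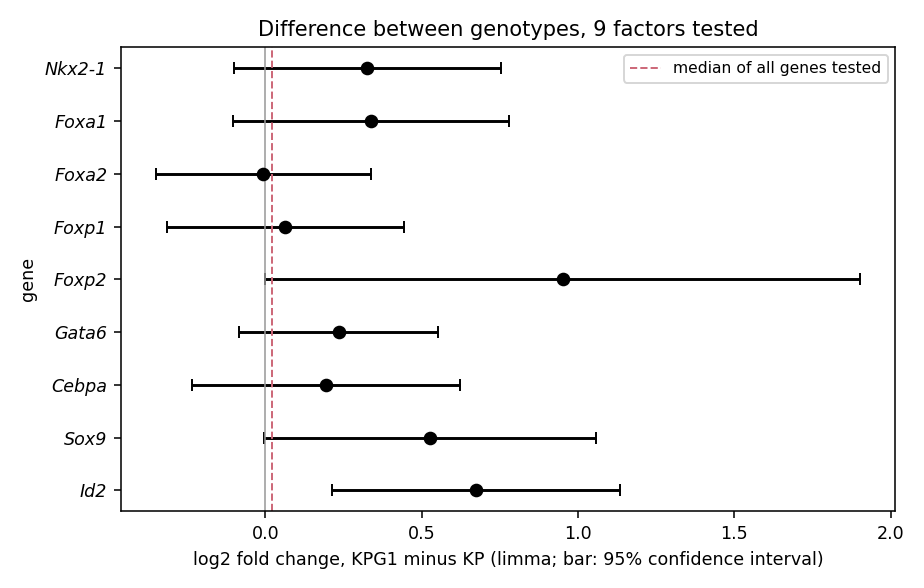
Log2 fold change (KPG1 minus KP, horizontal axis) of the 9 tested factors, as points with 95% confidence intervals from limma, and the median of all 16216 genes as a dashed line. The interval of Id2 (0.21 to 1.13) is the only one wholly above 0, and that of Foxp2 is the widest.

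The libraries carry numbers in their titles, and KP tumours mostly have the higher ones. With that number as a covariate the log2 difference was 0.01 for Nkx2-1, 0.42 for Id2 and 0.12 for Sox9, and those of Gata6 (-0.06), Cebpa (-0.06) and Foxp1 (-0.17) turned negative. The number is not said to mark a batch, and its part in the differences cannot be told apart from the genotype.

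Within genotypes most factors varied about as much as the median gene. The SD pooled over both groups was 0.22 for Gata6, 0.25 for Foxa2, 0.28 for Foxp1, 0.33 for Nkx2-1 and Cebpa, 0.34 for Foxa1, 0.36 for Id2 and 0.42 for Sox9, against a median of 0.35 over all genes tested. Foxp2 was apart, at 0.82, above 88.2% of genes. KP tumours ranged over 7.21-fold and KPG1 tumours over 1.81-fold, but the KP range rested on KP 1 and was 1.82-fold without it. In Id2 and Sox9 the wider range was that of KPG1 (2.14-fold and 2.35-fold against 1.59-fold and 1.81-fold). Without KPG1 1 the KPG1 ranges were 1.32-fold and 1.50-fold, below those of KP. These tumours were left out after seeing them stand apart.

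Relative to epithelial content the differences looked larger, and the choice of reference decided by how much. The mean log2 CPM of 10 epithelial markers was itself lower in KPG1 tumours, 8.01 against 8.42, without overlap (exact permutation p = 0.00794). The difference sat in Krt18, Krt8 and Krt19, keratins of simple epithelium (-0.87 ± 0.15, -0.67 ± 0.13 and -0.79 ± 0.21 in limma), and in the claudin Cldn4 (-1.53 ± 0.31), none of which passed the adjustment (limma adjusted p = 0.0501, 0.0699, 0.199 and 0.0773). In edgeR 0 of the 10 markers were called, but DESeq2 called 4 lower, as limma did without KP 5, and limma called 3 lower with quality weights and 1 lower with no filter or with a mean of at least 20 CPM. The other 6 markers, which include Epcam and Cdh1, differed by -0.04 (exact permutation p = 0.643).

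Against all 10 markers every factor had a higher mean in KPG1, and 6 of 10 (Sox2 is not among them) had an exact permutation p under 0.05. On this scale 37.8% of all genes tested had such a p and 85.7% had a higher mean in KPG1, since the reference itself was lower. Id2 was higher by 1.08 without overlap of the groups (p = 0.00794), Sox9 by 0.95 (p = 0.0159), Nkx2-1 by 0.73 (p = 0.0159), Gata6 by 0.64 (p = 0.0159), Foxa1 by 0.75 (p = 0.0238) and Foxp2 by 1.34 (p = 0.0317), all from exact permutation tests with no adjustment. The Foxp2 value was 0.86 without KP 1, and its exact permutation p was 0.0714 without KPG1 1, KPG1 2 or KPG1 3. Against the 6 other markers, a reference chosen after seeing the keratins, 1 of 10 was under 0.05, Id2, with 0.71 (exact permutation p = 0.0238), where 9.81% of all genes were. Nkx2-1 was then higher by 0.36 (exact p = 0.119), Sox9 by 0.58 (exact p = 0.0556) and Foxp2 by 0.97 (exact p = 0.0635). These values are close to those per library.

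**Figure D3:**
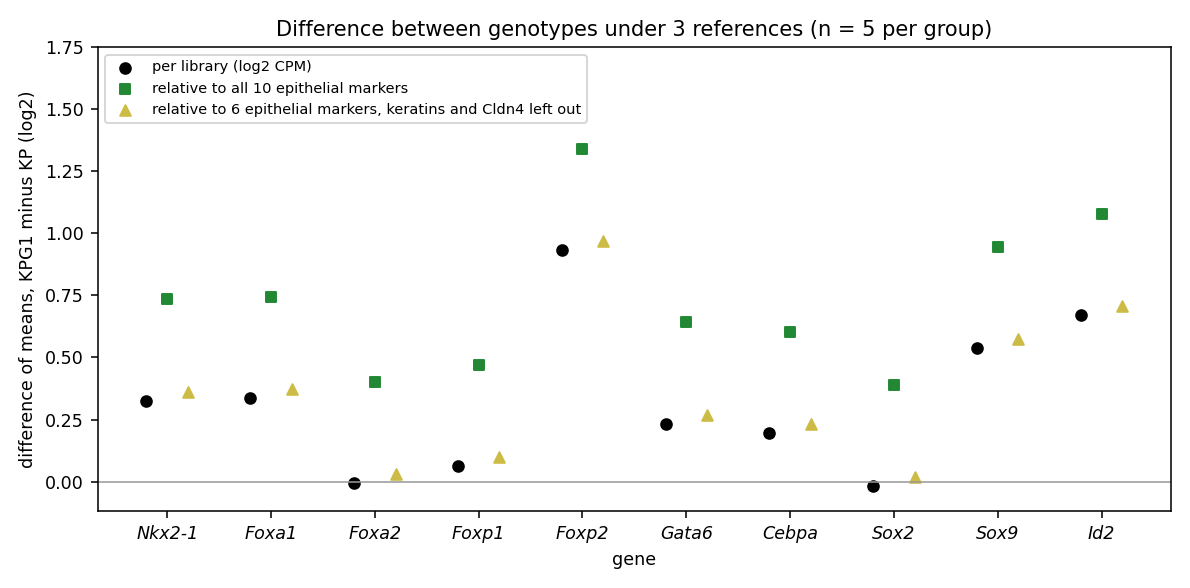
Difference of group means (log2, KPG1 minus KP, vertical axis; n = 5 per group) of each factor per library (circles), relative to 10 epithelial markers (squares) and relative to the 6 without keratins and Cldn4 (triangles). Squares lie about 0.41 above the circles for every factor, and triangles lie beside the circles.

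Across the 10 tumours, 32 of the 36 pairs of tested factors had a positive Pearson correlation, with a median r of 0.36. No pair passed a Benjamini-Hochberg adjusted p of 0.05 over the 36, and 8 had an unadjusted permutation p under 0.05. The closest pair was Foxp2 and Cebpa (r = 0.88, permutation p = 0.00171, adjusted 0.0616; rho = 0.78, permutation p = 0.0107, adjusted 0.198). With each genotype centred on its own mean r was 0.89. KP 1, the low tumour of both genes, carried part of the uncentred r. That r was 0.71 without KP 1 and 0.77 without KP 1 and KPG1 1, the tumours farthest from the median.

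The next pairs joined Nkx2-1, Gata6, Foxa1, Sox9 and Id2. Nkx2-1 went with Id2 (r = 0.72) and Gata6 (r = 0.70), both with an adjusted permutation p of 0.206. The first had an r of 0.45 without KP 3 and KP 4, the tumours with low Nkx2-1, and the second 0.48. Centred within genotype they had r of 0.61 and 0.60. Gata6 and Sox9 (r = 0.71), Sox9 and Id2 (r = 0.70) and Foxa1 and Id2 (r = 0.68) shared that adjusted permutation p of 0.206. So did Foxa1 and Sox9 (r = 0.66) and Gata6 and Id2 (r = 0.65). Within genotypes these pairs, in the order given, had r of 0.59, 0.49, 0.55, 0.54 and 0.47. Without the 2 tumours farthest from the median of the first gene they had 0.82, 0.79, 0.86, 0.79 and 0.51. The points share their library, so depth and composition enter both members of a pair.

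Relations between factors and gene lists were computed for 9 combinations. The score of a list is the mean of its genes' standardised log2 CPM. The list of alveolar type 2 targets holds surfactant proteins (Sftpa1, Sftpb, Sftpc and Sftpd), lamellar body genes such as Abca3, the lipid pump of these organelles, and Lamp3, and others, 16 in all. Cebpa went with this score (r = 0.86, permutation p = 0.00261, adjusted 0.0235 over 9; rho = 0.69, permutation p = 0.0353, adjusted 0.244). Centred within genotype r was 0.86. On uncentred values r was 0.66 without KP 1, with a permutation p of 0.0523, and 0.63 without KP 1 and KPG1 2. The relation thus rests in good part on KP 1, which had the lowest score at -1.63, followed by KP 4 at -0.86.

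Nkx2-1 had r = 0.28 and rho = -0.02 with the type 2 score (permutation p = 0.441 and 0.973). This r too depended on which tumours were used. It was 0.60 without KP 1 (permutation p = 0.0965, adjusted 0.217) but -0.12 without KP 3 and KP 4, the tumours with low Nkx2-1. Centred within genotype it was 0.03. KP 1 combined the lowest score with an Nkx2-1 level of 8.18, and KP 4 combined the second lowest with the lowest Nkx2-1. Foxa1 had r = -0.34 with the score (permutation p = 0.353, adjusted 0.636), and 0.01 without KP 1, both on uncentred values. With genotypes centred and all 10 tumours kept, the r of Foxa1 was -0.80 (exact permutation p = 0.00486, adjusted 0.0437). The centred relation was not computed without KP 1. For Foxa2 r was 0.23 and for Gata6 -0.0034 (permutation p = 0.532 and 0.992). Foxp2 and the score were not among the 9 relations.

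**Figure D4:**
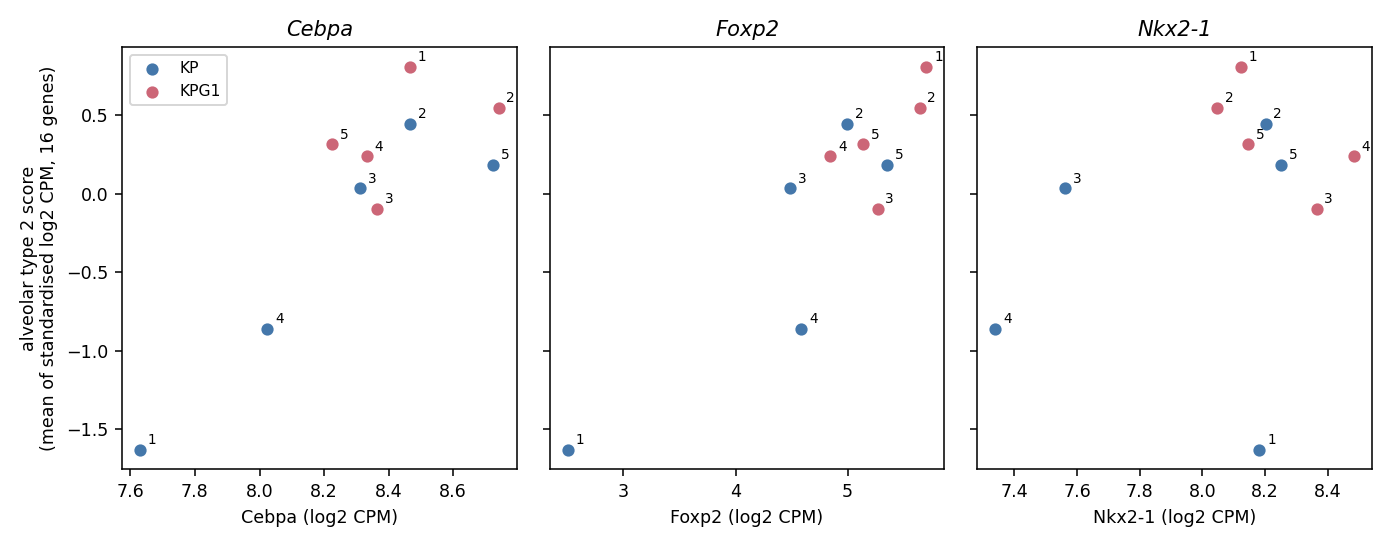
Score of 16 alveolar type 2 targets (mean of standardised log2 CPM, vertical axis) against the log2 CPM of Cebpa, Foxp2 and Nkx2-1 in each tumour (KP blue, KPG1 red, numbers are replicates). KP 1 is lowest in score, Cebpa and Foxp2 but not in Nkx2-1, and KP 4 is next in score.

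Nkx2-1 had r = -0.65 with a score of 18 gastric and hepatic genes (permutation p = 0.0440, adjusted 0.198; rho = -0.54, permutation p = 0.115). Without KP 3 and KP 4 the r was 0.0011, so the relation rests on those tumours. With Hmga2, a chromatin protein of advanced tumours, Nkx2-1 had r = -0.51 (permutation p = 0.137) and 0.02 without the same tumours. Sox9 and the late-tumour regulators (r = 0.10, permutation p = 0.772) and Id2 and the proliferation markers (r = 0.50, permutation p = 0.119) showed no relation past the adjustment. Proliferation markers were low in KP 5, at 52.8 summed CPM against 244 to 316 in the other KP and 269 to 468 in KPG1 tumours.

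For each factor the 3 genes with the most similar pattern were taken from 10270 genes with a mean of at least 3 log2 CPM, by Pearson r over the 10 tumours, as a description. They were Slc34a2 (0.97), Lifr (0.97) and Snx25 (0.96) for Foxp2, and Ptgfrn (0.98), Icam1 (0.98) and H2-DMa (0.97) for Cebpa. Slc34a2 encodes the phosphate transporter of type 2 cells, and without KP 1 its r with Foxp2 was 0.84. Nkx2-1 was closest to Atf7ip, Fancm and Dcun1d1 (0.91 to 0.93), Foxa1 to E2f3, Rpa3 and Vrk1 (0.93 to 0.95), and Id2 to Prps2, Tmcc1 and Mfap3l (0.94 to 0.95). Foxa2 was closest to Svip, Cald1 and Ptprj (0.86 to 0.90), Foxp1 to Herpud2, Gng12 and Srpk2 (0.92 to 0.96), Gata6 to Tsc22d2, Bmf and Cdk13 (0.93 to 0.94) and Sox9 to Prcc, Pole4 and Yap1 (0.93 to 0.95). These r were picked as the highest of 10270 over 10 tumours, so they are high by selection, and none was tested.

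The genes around the factors were described by lists. Over all 16216 genes tested, 52.7% were fitted higher. At an unadjusted limma p under 0.05, 853 of them were higher and 1024 lower, and DESeq2 called 3.38% of all genes. Of the 16 alveolar type 2 targets, 14 had a positive and 2 a negative fitted difference, and the list's median was 0.62 on the log2 scale, against 0.02 over all genes. None passed the adjusted p in limma, and 5 had an unadjusted p under 0.05, all higher. Sftpc, the surfactant protein whose promoter drove Cre, differed by 1.22 ± 0.40 (limma adjusted p = 0.272), Cxcl15, the chemokine lungkine, by 1.16 ± 0.35 (0.243), Abca3 by 0.97 ± 0.36 (0.332) and Lpcat1, an enzyme of surfactant phosphatidylcholine, by 0.67 ± 0.24 (0.322), with limma adjusted p in brackets. By edgeR and by DESeq2 the count was 0 as well. The list median was 0.43 without KP 1.

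Of the gastric and hepatic genes, 18 of 22 were tested, 17 had a lower and 1 a higher fitted value, and the median was -0.79. Not all of them were silent in these tumours. Gkn2 was at 8.56 to 9.71 log2 CPM in KP and 8.80 to 10.2 in KPG1 tumours, and Ctse at 7.02 to 9.93 and 7.63 to 8.25. In this list too none passed the adjusted p in limma, while 5 had an unadjusted p under 0.05, all lower, and edgeR called 0 and DESeq2 3, all lower. Cdh17, a cadherin of the gut, differed by -3.90 ± 0.98 (limma adjusted p = 0.171), Onecut2, a hepatic factor, by -3.19 ± 1.15 (0.325), Hnf4a, the nuclear receptor of gut and liver, by -0.72 ± 0.27 (0.337) and Afp by -0.87 ± 0.39 (0.422). The ranges were 1.63 to 5.66 in KP and -2.65 to 1.39 in KPG1 tumours for Cdh17 and 3.23 to 8.11 and -1.32 to 3.67 for Onecut2, in log2 CPM.

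**Figure D5:**
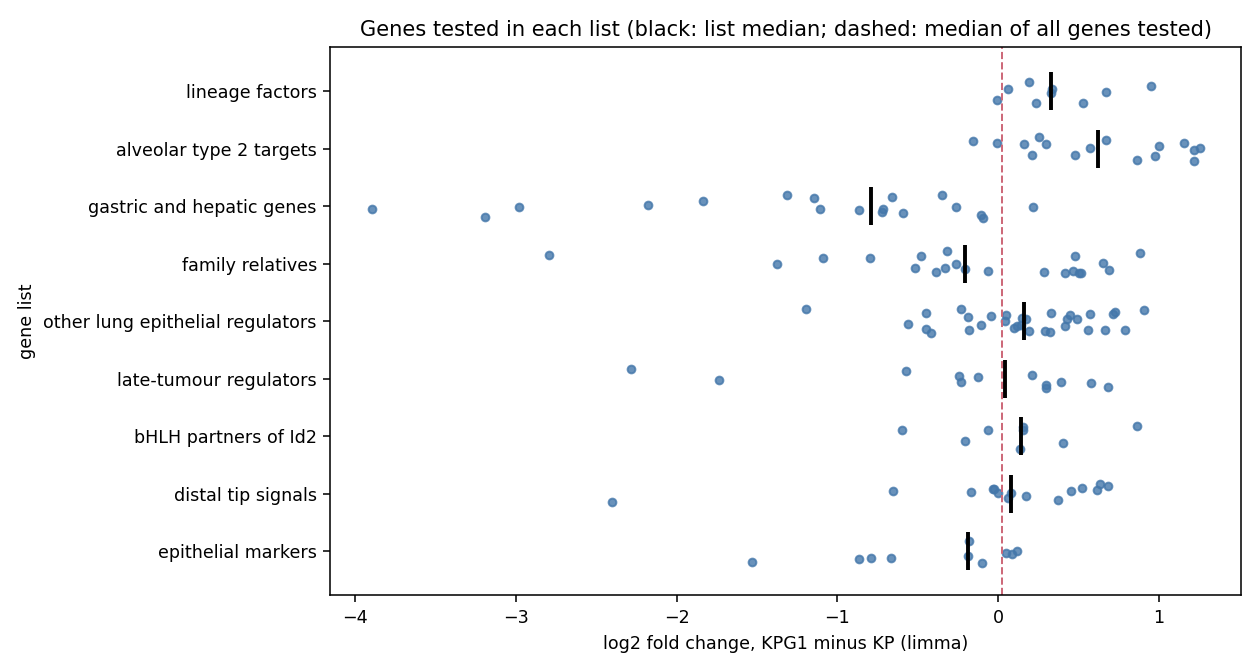
Log2 fold change (KPG1 minus KP, horizontal axis) of each tested gene in the lineage factors and in 8 lists around them, each point 1 gene, with the list median as a black bar and the median of all genes as a dashed line. The type 2 targets have a median of 0.62 and the gastric and hepatic genes one of -0.79, with the factors at 0.33.

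Relatives of the factors by family were split. Of 36, 21 were tested, 9 had a higher and 12 a lower fitted value, with a median of -0.21, and in limma none passed the adjusted p while 2 were higher and 3 lower at an unadjusted p under 0.05, and edgeR and DESeq2 called 0. Gata5, an endodermal GATA factor, differed by -2.80 ± 0.83 (limma adjusted p = 0.237), Sox7, which endothelium uses, by 0.89 ± 0.30 (0.295), Foxa3, the hepatic FOXA, by -0.80 ± 0.33 (0.383) and Gata3 by -1.38 ± 0.59 (0.393). Endothelial markers summed to 359 to 1240 CPM in KP and 558 to 1739 in KPG1 tumours, with 10 of 10 fitted higher and none called, and their part in the Sox7 value was not tested. The median turned to 0.29 without KP 1.

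Of 33 other regulators of lung epithelium, 32 were tested, 22 fitted higher and 10 lower, with a median of 0.16 and 4 and 3 at an unadjusted limma p under 0.05. Adjusted calls were 0 by the main limma fit and edgeR and 1, lower, by DESeq2, as by limma without KP 5. Smad3, a TGF-beta effector, differed by -0.45 ± 0.10 (limma adjusted p = 0.142), Elf5, a factor of the distal tip, by 0.72 ± 0.21 (0.234), Foxj1, the regulator of cilia, by -1.19 ± 0.42 (0.312) and Klf5 by -0.45 ± 0.17 (0.338). Of 14 regulators of late tumours 12 were tested, 6 fitted higher and 6 lower, with a median of 0.04. Adjusted calls were 0 by the main limma fit and edgeR against 3, all lower, by DESeq2. Limma called 1 lower with quality weights and 2 lower without KP 5. Fosl1, an AP-1 subunit (-1.74 ± 0.36, limma adjusted p = 0.0916), Hmga2 (-2.28 ± 0.63, 0.206) and Hmga1 (-0.57 ± 0.16, 0.206) were among 3 lower at an unadjusted p under 0.05, and Prrx1, a mesenchymal factor, was the 1 higher (0.68 ± 0.27, 0.369).

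The bHLH proteins on which ID2 acts, with their relatives, gave 5 fitted higher and 3 lower of 8 tested, with a median of 0.15. Hes1, a Notch target, differed by -0.60 ± 0.15 (limma adjusted p = 0.179) and Ascl2 by 0.87 ± 0.38 (0.414), at 6 to 43 Ascl2 counts a tumour. Of 18 signals of the distal tip, where Sox9 and Id2 act in development, 15 were tested, with a median of 0.08, and 1 had an unadjusted limma p under 0.05, Wnt5a (0.63 ± 0.27, adjusted p = 0.389). Neither list had an adjusted call in the main limma fit or by edgeR, and DESeq2 called 1 lower in each. Limma without KP 2 called 1 distal tip signal lower.

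Markers of other cells were set beside the factors. Club cell genes, of the airway type that Sox2 maintains, summed to 260 to 325 CPM in KP 1 to KP 4, 2675 in KP 5 and 161 to 746 in KPG1 tumours. The KP 5 value was mostly Muc5b, which reached 11.4 log2 CPM in KP. Of 6 club genes tested, 3 fitted higher and 3 lower. At an unadjusted limma p under 0.05, 2 were higher and 0 lower. They were Cyp2f2 (2.11 ± 0.56, limma adjusted p = 0.195) and Cckar (1.81 ± 0.52, 0.234), the latter at 10 to 142 counts a tumour. Fibroblast markers summed to 127 to 465 CPM in KP and 215 to 355 in KPG1 tumours, with 9 of 9 fitted higher and 1 at an unadjusted limma p under 0.05. Alveolar type 1 markers summed to 1096 to 3509 and 1967 to 3617 CPM, with 6 fitted higher and 2 lower. Ciliated markers stood at 18.0 to 43.7 and 18.4 to 44.5 CPM, neuroendocrine markers at most at 8.96 and basal markers at most at 13.3. Of 7 ciliated markers tested, 4 fitted higher and 3 lower, with 0 higher and 2 lower at an unadjusted limma p under 0.05. These 2 were Foxj1 and Ccdc113 (-1.95 ± 0.64, limma adjusted p = 0.274), the latter at 1 to 79 counts a tumour. The proliferation markers were fitted higher in 10 of 10, with a median of 0.87, or 0.36 without KP 5, and 2 at an unadjusted limma p under 0.05. In these lists limma and edgeR made 0 adjusted calls, and DESeq2 made 1 higher, among club genes, and 1 lower, among basal genes. Their part in the values of Id2, Sox9 and the other factors was not tested.

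Between Nkx2-1 and Foxa1 on chromosome 12 the annotation has 5 protein-coding genes, and Pax9, Prps1l3 and Mipol1 had enough counts to test. Pax9, a paired-box factor, averaged 4.07 CPM in KP and 0.363 in KPG1 tumours (log2 fold change -2.95 ± 0.90, limma adjusted p = 0.245), opposite in sign to its neighbours, and is named because of its place. Mipol1 (-0.0066) and Prps1l3 (0.05) had values near 0.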

How the data were processed

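RNA from the CD45-negative fraction of 10 mouse lung tumours was sequenced by the authors from TruSeq stranded mRNA libraries, as single-end reads. Per the labels, the submitters' processing notes name bcl2fastq 2.17, cutadapt 1.4.2, HISAT2, featureCounts 1.4.4 and edgeR with the mm10 build; the annotation release and the strand setting of the counting are not given in the sources used here. The deposited counts are whole reads per gene, not normalized, and the 390170 values used were the same in the joint table and in the per-library files. A second deposited table of log2 values was not used here.

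Groups were taken from the labels. Genes passing edgeR's filterByExpr (version 4.0.16) were scaled by TMM and fitted with limma-voom (version 3.58.1, R 4.3.3) on genotype alone, over the whole table, with Benjamini-Hochberg adjustment and a threshold of 0.05. The study's methods use this test. Log2 CPM carried a prior count of 2. Single values were compared with exact two-sided permutation tests over 252 rearrangements, and relations across tumours with 100000 permutations. With 32427029 to 49534284 counts a library, counting error was small for all factors but Sox2. Alternatives were edgeR's quasi-likelihood test, DESeq2 1.42.0, other scalings, filters and weights, the replicate number as a block, the number in the titles as a covariate, and each tumour left out in turn. The scripts were tested on simulated counts.

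The same replicate numbers occur in both groups, and the correlation of same-numbered tumours' deviations from their group means was checked to see whether the numbers pair tumours; it ran from -0.16 to 0.08, so they were not treated as pairs.

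The text names all 10 factors, Slc2a1, up to 4 genes of each list around the factors with the smallest unadjusted p under 0.05, the 3 genes most similar to each tested factor, and markers given beside a result. The factors are matched by symbol, without measured values, but the set and the gene lists were chosen with earlier results of these data known. The alleles engineered to initiate tumours are not reported here.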

Additional observations from a re-analysis of the deposited data

Results flagged for a closer look

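In 58 groups of 5 tumours (each factor and each list score in each genotype), 5 had 1 tumour standing apart by Dixon's test, where chance gives about 2.9. Among the factors this was Foxa1 in KP 1, at 6.64 log2 CPM, with the other KP tumours at 5.75 to 5.97. The score of the epithelial markers was 0.93 in KP 3, against 0.16 to 0.37 in the other KP tumours, and its leukocyte score was 1.05, against -0.19 to 0.06. The proliferation score was -2.60 in KP 5, against -0.16 to 0.17. The score of gastric and hepatic genes was -1.20 in KPG1 1, and the remaining tumours of its genotype lay at -0.29 to 0.06.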

How the results depend on the processing

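In limma none of the 9 factors passed the adjusted p under any alternative fit run, including each tumour left out, and edgeR's quasi-likelihood test gave 0 as well. DESeq2 called 1, Id2 (adjusted p = 0.0489). Over the 19 alternatives the Id2 adjusted p ran from 0.0489 to 0.641. The differences of Nkx2-1, Foxa1, Foxp2, Sox9 and Id2 stayed positive in all 19. Foxa2 was above 0 in 7 and below 0 in 12 of the 19, with a lowest value of -0.21. It took values of 0.0028 with library size alone or without a filter and 0.045 with quality weights, and -0.086 to 0.077 with a tumour left out. The values with the title number as covariate were -0.17 for Foxp1, -0.063 for Gata6 and -0.057 for Cebpa, and with a tumour left out Foxp1 ran from -0.023 to 0.18. Over all genes, calls were 10 higher and 18 lower in the main fit, 125 and 423 with DESeq2, 51 and 177 with quality weights, 5 and 31 with a mean of at least 20 CPM, and 4 and 4 with the title number. Calls lower in KPG1 were 29 with edgeR and 31 without a filter. With a tumour left out they ran from 3 to 71 higher and from 1 to 223 lower, the most being without KP 5. The replicate block gave 4 higher and 1 lower, and changed no call among the factors; 1 of 5 tumours correlated best with its own number. Of the 9 relations with lists, 1 passed as reported, 2 with genotypes centred, 0 without the 2 tumours farthest from the median and 0 without KP 1, an alternative chosen after seeing the data. The cause of these shifts was not tested.

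Among the factors counting depth limited Sox2. With 5 tumours a group an exact test cannot go below p = 0.00794. Relative to the 10 epithelial markers, leaving out 1 tumour brought the exact permutation p under 0.05 for Foxa2 (0.0238 without KP 2, 0.0476 without KP 5), Foxp1 (0.00794 without KP 5), Cebpa (0.0476 without KP 2, 0.0159 without KP 5) and Sox2 (0.0397 without KPG1 1). The part of other cells in each fraction was not tested, and the number in the titles cannot be told apart from genotype.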
